A study of Mus musculus with 8 samples.

Results

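The genes described here are known from muscle cells that have not yet fused, although Itga7 is also part of the mature fibre membrane. They are Pax7, Pax3, Msc, Hmga2, Cd34, Vcam1, Itga7, Id1, Id2 and Id3, 10 of the 22180 genes that had a probe set of their own on the array, and they are taken by name, with earlier results of these samples known. Each gene was read from the probe set assigned to it alone, and where a gene had more than 1 such probe set, from the one with the highest mean over the 8 arrays. The samples were cultures of C2C12, an established line of mouse myoblasts that form multinucleate myotubes on differentiation, and their total RNA was hybridised to Affymetrix Mouse Gene ST 2.1 arrays. The control groups carried a retrovirus with a scrambled sequence and the knockdown groups a retrovirus against Baf60c, the product of Smarcd3 and a component of the BAF complexes that remodel chromatin. The labels call these retroviruses siScramble and siBaf60c in one place and shRNA in another. After differentiation, the myotubes were kept for 12 h in 1 mM or 10 mM glucose, which gave 4 groups of 2 arrays that the series design calls independent biological replicates: control and knockdown myotubes at 1 mM glucose, and control and knockdown myotubes at 10 mM glucose. All 4 groups came from 1 cell line and all carried a retrovirus, so the comparisons contain no untransduced cells, no undifferentiated myoblasts and no satellite cells from muscle.

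Satellite cells are the stem cells of skeletal muscle. They rest between the fibre and its basement membrane under the control of the paired-box factors Pax7 and Pax3, and once activated they become myoblasts, which switch on Myod1 and later Myog and fuse. Id proteins are helix-loop-helix factors without a DNA-binding region that hold E proteins away from MyoD, and Msc (musculin, also called MyoR) is a repressor that competes with MyoD for E-boxes, so both kinds of gene are known for holding back differentiation. Hmga2 is an architectural chromatin protein of growing myoblasts whose messenger RNA is a known target of let-7 microRNAs. Cd34 (a sialomucin), Vcam1 (an immunoglobulin-type receptor for integrin α4β1) and Itga7 (the laminin-binding integrin α7) are surface proteins used to sort satellite cells, although Itga7 is also a lasting component of the mature fibre membrane.

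Values are the authors' log2 expression values, on which a difference of 1 is a doubling, and 13308 genes above a brightness filter were tested. Arrays of 1 group correlated over the tested genes with a Pearson r of 0.987 to 0.990. The probe set of the knockdown target, which Smarcd3 shares with its neighbour Chpf2, gave 5.62 and 5.40 (control) against 3.01 and 2.77 (knockdown) at 1 mM glucose, and 6.27 and 6.09 against 3.90 and 4.49 at 10 mM, so it was lower on all 4 knockdown arrays. The 10 myotube markers read were Myog, Myod1, Ckm, Des, Myh3, Actc1, Acta1, Tnnt3, Mymk and Ttn. When each effect was averaged over the other condition, 10 of 10 were called higher at 10 mM glucose, beside 21.3% of all tested genes. On average, 10 of 10 were called lower in knockdown cells, beside 2.71% of all tested genes. Calls are by limma at an adjusted p under 0.05. For glucose, 6 of the markers were called higher in control cells and 10 in knockdown cells, beside 13.2% and 14.5% of all tested genes. The unlogged values of these markers summed to 9292 to 10158 in control and 4406 to 4714 in knockdown myotubes at 1 mM glucose. At 10 mM the sums were 13878 to 15031 in control and 8527 to 9021 in knockdown myotubes. How far this shift of the myotube programme takes part in the changes of the 10 genes was not tested. In RNA from whole cultures, fewer cells of a type and less RNA per cell cannot be told apart.

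The 3 transcription factors were the dimmest of the 10 genes. As a yardstick chosen after the values were seen, 1390 olfactory and vomeronasal receptor genes, which are known for their roles in sensory neurons, had a median of their mean log2 values of 1.33 and a 95th percentile of 2.35. The mean over all arrays was 3.63 for Pax7, 2.51 for Pax3 and 2.45 for Msc, and 98.99%, 96.47% and 95.97% of the receptors lay below these. Pax3 and Msc therefore sat close to this background, and a change in either would be hard to see. The other 7 genes lay above at least 99.86% of the receptors, with means from 4.91 for Id3 to 9.68 for Itga7. These means come from different probe sets and do not rank the genes by abundance.

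**Figure D1:**
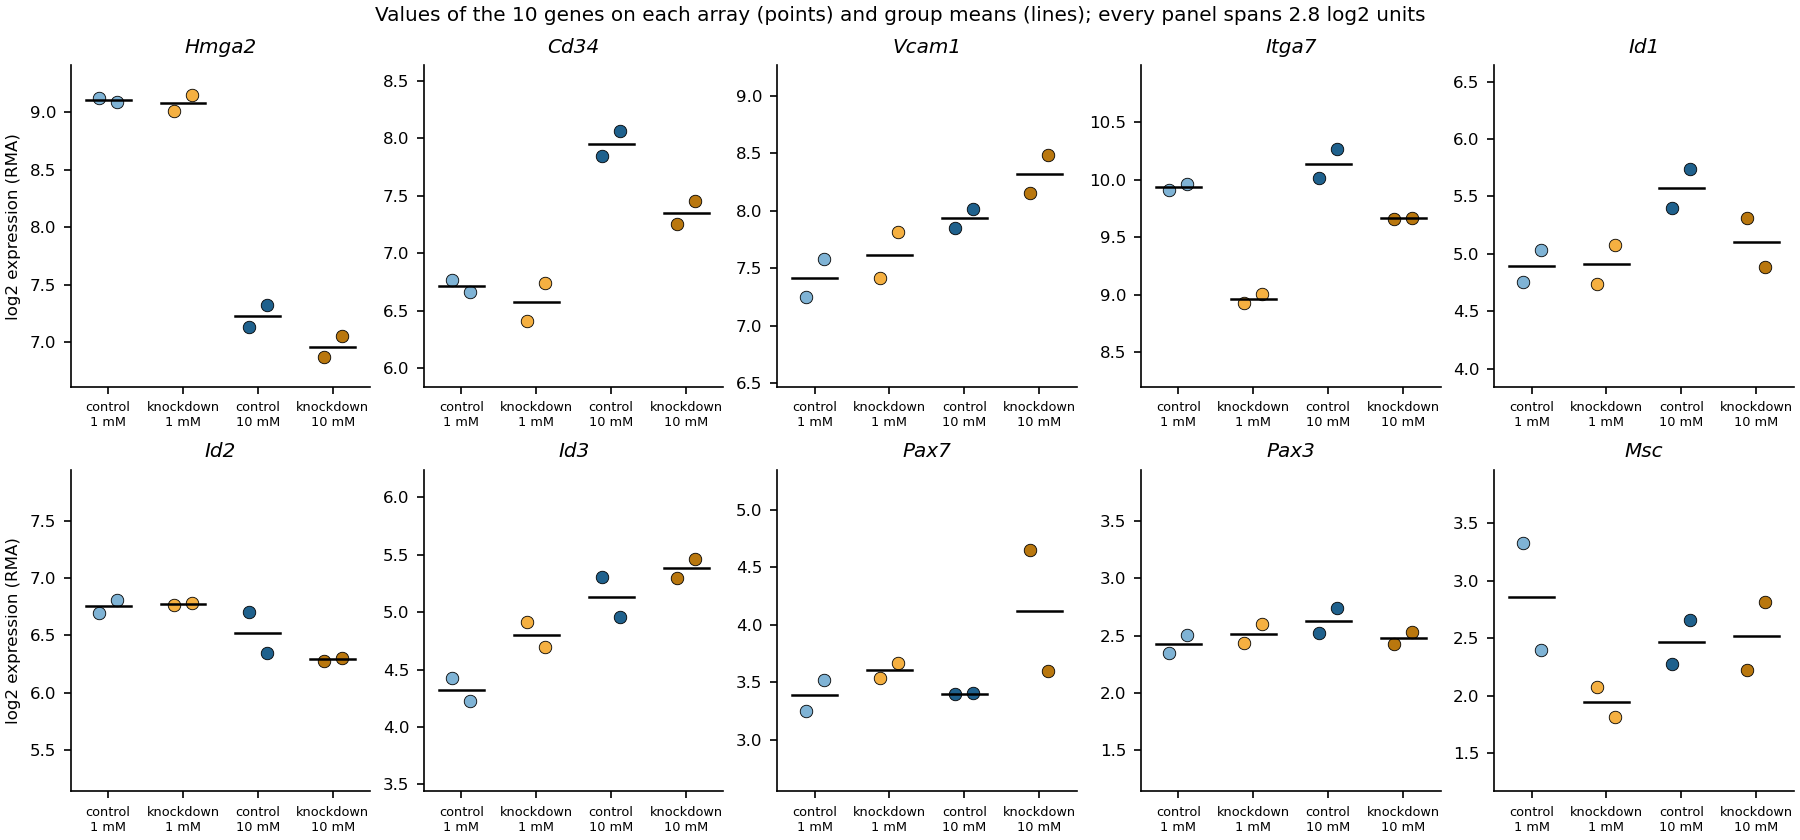
Log2 expression of the 10 genes on each of the 8 arrays (points) with group means (lines), for control and knockdown myotubes at 1 mM and 10 mM glucose; the axes start at different values but span the same distance. Hmga2 falls from about 9.1 to about 7 at 10 mM glucose in both cell types, Cd34 rises, and the knockdown arrays of Itga7 lie below the control arrays at each glucose level.

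More of these genes passed the test for glucose than for knockdown, and the same held for all tested genes. Of all tested genes, calls for glucose made up 25.3% in control and 25.1% in knockdown cells. Calls for knockdown made up 1.49% at 1 mM and 1.12% at 10 mM. In control myotubes, 3 of the 10 passed the test (limma with Benjamini-Hochberg adjustment over the 13308 genes, adjusted p under 0.05), Cd34 and Id3 higher and Hmga2 lower at 10 mM. This is 30%, beside 25.3% of all tested genes (13.2% higher and 12.1% lower). In knockdown myotubes 5 of 10 passed, Cd34, Id3, Vcam1 and Itga7 higher and Hmga2 lower, beside 25.1% of all tested genes (14.5% higher and 10.6% lower). That count was 3 without the brightness filter (Cd34, Hmga2 and Itga7), and some of the 5 calls were lost on leaving out any 1 array. Without the second knockdown replicate at 10 mM the changes were smaller for Cd34 (0.67), Id3 (0.50) and Vcam1 (0.54). Pax7 then changed by 1.05 instead of 0.52, through 1 high array. In the average of both cell types 6 of 10 passed, beside 39.1% of all tested genes. Cd34, Id3, Vcam1 and Itga7 were higher there, and Hmga2 and Id2 lower. The 2 arrays at 10 mM did not overlap the 2 at 1 mM for 7 of the 10 genes in either cell type, where 64.4% of all tested genes were apart in control and 64.2% in knockdown cells. The share of the 10 genes that was called or apart was thus near that of all genes in control cells, and with 10 genes 1 call is worth 10%. The median log2 change of the 10 genes was 0.20 in control and 0.55 in knockdown cells, beside -0.01 and 0.03 over all tested genes, and it hides the steep fall of Hmga2.

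Hmga2, the growth-associated chromatin protein, changed most. It read 9.13 and 9.09 in control myotubes at 1 mM glucose and 7.13 and 7.32 at 10 mM. In knockdown myotubes it read 9.01 and 9.15 at 1 mM and 6.87 and 7.05 at 10 mM. The 4 arrays at 1 mM lay within a narrow band, all 4 arrays at 10 mM lay well below it, and the groups did not overlap. The fall was 3.69-fold in control cells (log2 change -1.88 ± 0.14 SE, adjusted p = 0.000232, limma with Benjamini-Hochberg adjustment) and 4.36-fold in knockdown cells (-2.12 ± 0.14, adjusted p = 0.000162). Knockdown left no difference past the test, with a change of -0.03 ± 0.14 at 1 mM glucose (adjusted p = 0.945) and of -0.27 ± 0.14 at 10 mM (adjusted p = 0.468). The difference between the glucose responses of the cell types was -0.24 with a 95% confidence interval from -0.70 to 0.22 (adjusted p = 0.810).

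The promoter of Hmga2, the gene with the largest change, is shown as the 250 bases before its start in RefSeq on mouse assembly GRCm38.p6 (chr10:120476470-120476719, minus strand). It is rich in pyrimidines.
Hmga2: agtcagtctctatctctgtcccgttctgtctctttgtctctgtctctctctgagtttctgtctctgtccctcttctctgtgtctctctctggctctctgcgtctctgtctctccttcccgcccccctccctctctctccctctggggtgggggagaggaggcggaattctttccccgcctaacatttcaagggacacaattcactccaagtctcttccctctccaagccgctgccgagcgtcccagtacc
Cytosine and thymine made up 70.8% of it, and 99.59% of the 32851 promoters of that table had a lower share. None of the 4 motifs searched on both strands was found in it, which is why it carries no capitals: the E-box CANNTG, which 66.22% of all promoters held, the BMP-Smad GC element GGCGCC (9.59%), the Smad box CAGAC (42.19%) and the TATA box TATAAA (12.37%). These are descriptions of the letters only.

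The Lin28 and let-7 pathway is known to control Hmga2. Of 10 genes around Lin28 and let-7 on the array, Lin28a, Lin28b, Igdcc3, Trim71 and Cdkn2a were below the brightness filter, and of the 5 tested, 1 rose and 1 fell in the average glucose effect, which is the mean of the glucose changes in control and knockdown cells. These 2 of 5 genes are near the 39.1% of all tested genes called for that effect. The gene that fell was Nras, a small GTPase and let-7 target, at -0.41 ± 0.09 (adjusted p = 0.00838, limma with Benjamini-Hochberg adjustment). The gene that rose was Igf2bp3, an RNA-binding protein, at 0.48 ± 0.15 (adjusted p = 0.0352), and its call was lost when each array was centred on its median, without the filter, with the stricter filter and on leaving out any 1 array except the first control replicate at 10 mM, which left a count of 1 for the list. Probe sets of 12 let-7 family precursor genes were on the array. Of these, 8 were tested and 0 were called in any of the 7 contrasts, with average glucose changes from -0.19 to 0.67. A precursor probe set on this array does not measure the mature microRNA.

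Cd34, the sialomucin, moved the other way. It read 6.76 and 6.66 in control myotubes at 1 mM glucose and 7.85 and 8.06 at 10 mM, and in knockdown myotubes 6.41 and 6.74 at 1 mM and 7.25 and 7.46 at 10 mM. Each 10 mM array lay above each 1 mM array, and at 10 mM the knockdown arrays lay below the control arrays, while at 1 mM they overlapped. The rise was 2.37-fold in control cells (log2 change 1.24 ± 0.16, adjusted p = 0.0021, limma with Benjamini-Hochberg adjustment) and 1.72-fold in knockdown cells (0.78 ± 0.16, adjusted p = 0.0129). The call in knockdown cells was lost without the first knockdown replicate at 1 mM (0.61, adjusted p = 0.0678) and without the second at 10 mM (0.67, adjusted p = 0.0827). The knockdown difference at 10 mM was -0.60 ± 0.16 with an adjusted p of 0.169, and it passed with the trend and robust options of limma (adjusted p = 0.0444). The glucose responses of the cell types differed by -0.46 with an interval from -1.01 to 0.08 (adjusted p = 0.691).

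Vcam1, the integrin ligand on the cell surface, followed with a smaller rise. Its values were 7.25 and 7.58 in control myotubes against 7.42 and 7.82 in knockdown myotubes at 1 mM, and 7.85 and 8.01 against 8.16 and 8.48 at 10 mM. Within each cell type the glucose levels did not overlap, and at 10 mM the knockdown arrays were the highest of all. In control cells the change was 0.52 ± 0.20 with an adjusted p of 0.103. In knockdown cells the rise was 1.63-fold (0.70 ± 0.20, adjusted p = 0.0403), but this call was lost when arrays were centred on their medians (0.61, adjusted p = 0.0613), without the filter (adjusted p = 0.0646) and on leaving out either knockdown array at 10 mM, the first knockdown array at 1 mM or either control array at 10 mM (adjusted p from 0.0592 to 0.199). Averaged over both cell types the rise was 0.61 ± 0.14 (adjusted p = 0.0123).

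Endothelial and blood cells also carry Cd34 or Vcam1, so their markers were read beside these results. Of 9 endothelial markers on the array, 5 (Pecam1, Kdr, Tie1, Emcn and Cldn5) lay below the filter, 0 of the 4 tested were called for glucose or knockdown on average, and their unlogged sum ran from 39.0 to 60.4 over all arrays. Of 7 blood and macrophage markers, Adgre1, Csf1r, Itgam and Lyz2 lay below the filter, and the sum ran from 60.1 to 92.7, with Ptprc and Cd68 lower at 10 mM glucose. Of the fibroblast markers, 6 of 7 tested were higher and 1 lower at 10 mM on average. Among those higher were Dpt at 2.35 ± 0.12 and Cd248 at 1.91 ± 0.16. The sum of the fibroblast markers went from 3456 to 3968 at 1 mM to 6437 to 7271 at 10 mM. For knockdown on average, 1 of the 7 was called lower and 0 higher. Of 8 smooth muscle and pericyte markers, 2 were higher at 10 mM glucose (Acta2 and Tagln) and 2 in knockdown cells (Cnn1 and Tagln). The sums of all 8 ran from 2318 in control cells at 1 mM to 5221 in knockdown cells at 10 mM. Over all tested genes, 21.3% were called higher and 17.8% lower for glucose on average, and 1.6% higher and 2.71% lower for knockdown. The part of the fibroblast and smooth muscle genes in the rise of Cd34 and Vcam1 was not tested.

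Other adhesion molecules of the same classes were read for comparison. Of 7 tested genes for immunoglobulin adhesion molecules and sialomucins, 0 rose and 2 fell at 10 mM glucose on average (median change -0.24), beside 21.3% of all tested genes higher and 17.8% lower. For the knockdown on average 0 of the 7 were called by limma (median change -0.08), beside 4.31% of all tested genes. Podxl, a sialomucin related to Cd34, fell by 1.01 ± 0.18 on the log2 scale (adjusted p = 0.0034, limma with Benjamini-Hochberg adjustment). Alcam, an immunoglobulin-type adhesion molecule, fell by 0.63 ± 0.09 (adjusted p = 0.0017).

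Itga7, the integrin α7 chain, was the gene among the 10 that passed the test for the knockdown. At 1 mM glucose its values were 9.91 and 9.96 in control myotubes against 8.93 and 9.00 in knockdown myotubes, and they were 10.01 and 10.27 against 9.66 and 9.67 at 10 mM. The 4 knockdown arrays lay below the 4 control arrays, the knockdown arrays at 1 mM were the lowest, and those at 10 mM were between. The order of the group means was knockdown at 1 mM, knockdown at 10 mM, control at 1 mM and control at 10 mM. The last of these did not differ past the test from its neighbour. At 1 mM the fall with knockdown was 1.96-fold (-0.97 ± 0.14, adjusted p = 0.0192, limma with Benjamini-Hochberg adjustment), where 1.49% of all tested genes were called (0.233% higher and 1.25% lower). Leaving out any 1 of the 4 arrays at 1 mM raised the adjusted p to between 0.0815 and 0.133 with changes of -0.93 to -1.01, and the count of called genes among the 10 then went from 1 to 0. At 10 mM the difference was -0.48 ± 0.14 (adjusted p = 0.179). There 0 of the 10 genes were called by limma, beside 1.12% of all tested genes (0.428% higher and 0.691% lower), while 3 of the 10 had an unadjusted p under 0.05, beside 1807 of the 13308 tested genes. With trend and robust options 2 of the 10 (Itga7 and Cd34) passed, beside 467 of the 13308.

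The glucose response of Itga7 was 0.21 ± 0.14 in control cells (adjusted p = 0.307) and 0.70 ± 0.14 in knockdown cells (a 1.63-fold rise, adjusted p = 0.00862). The latter was lost without the first knockdown replicate at 10 mM (adjusted p = 0.0515). The 2 responses differed by 0.49 with an interval from 0.05 to 0.94, and this difference had an unadjusted p of 0.0344 and an adjusted p of 0.590. No gene of the 13308 was called for such a difference by limma, 1049 had an unadjusted p under 0.05, and 1 was called with trend and robust options. Averaged over both glucose levels, Itga7 was lower in knockdown cells by 0.72 ± 0.10 (log2 change -0.72, adjusted p = 0.00938), 1 of 10 genes called where 4.31% of all tested genes were (1.6% higher and 2.71% lower). Knockdown and control arrays did not overlap for 4 of the 10 genes at 1 mM and 7 at 10 mM, beside 47.1% and 45.6% of all tested genes. For the average effect, trend and robust options added Cd34 (-0.37, adjusted p = 0.0488), and without the second knockdown replicate at 10 mM Pax7 was called as well (0.73, adjusted p = 0.0454).

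Integrin α7 pairs with integrin β1 and binds laminin-211, whose α chain is the product of Lama2. Lama2 had group means of 8.45 in control and 7.28 in knockdown myotubes at 1 mM and of 8.28 against 7.34 at 10 mM. It fell with knockdown at each glucose level, by 1.17 ± 0.13 on the log2 scale at 1 mM (adjusted p = 0.00787) and by 0.93 ± 0.13 at 10 mM (adjusted p = 0.0318). Itgb1, the partner chain, changed by -0.28 ± 0.16 and -0.12 ± 0.16 and was not called (adjusted p = 0.457 and 0.824). The 10 myotube markers moved the same way as Itga7, with all 10 changes below 0 at each glucose level. Of them 8 were called lower at 1 mM and 4 at 10 mM, beside 1.25% and 0.691% of all tested genes.

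**Figure D2:**
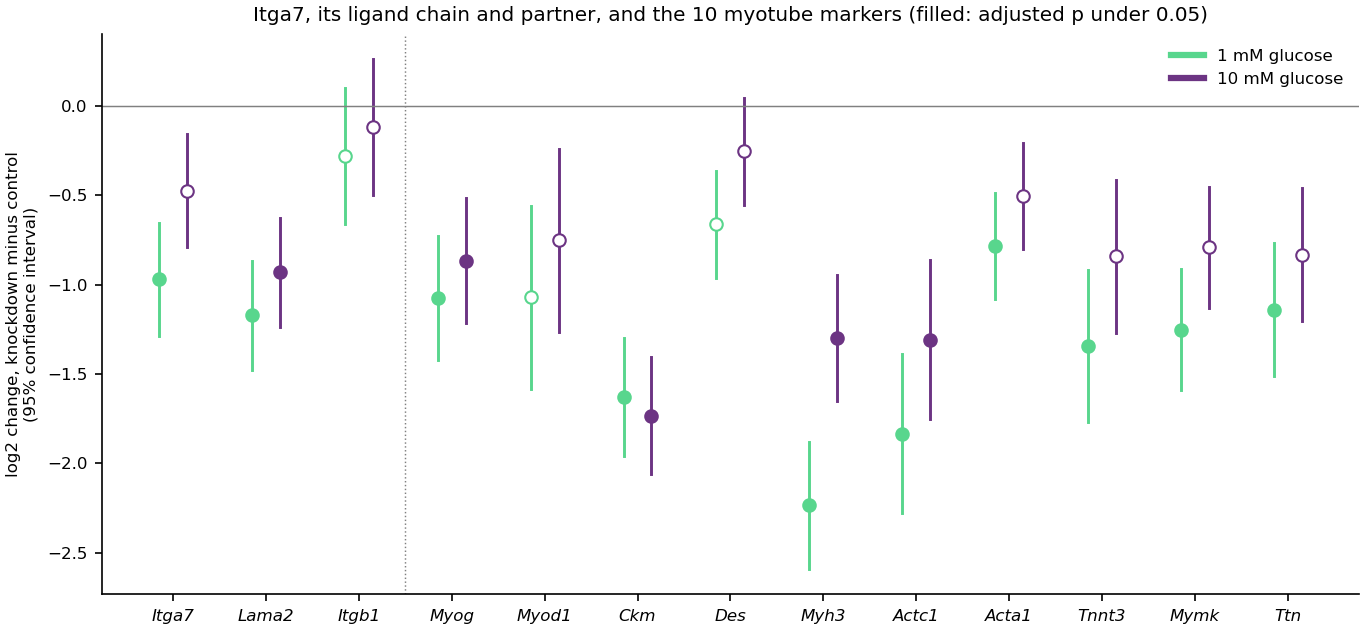
Log2 change with knockdown at 1 mM (green) and 10 mM glucose (purple) for Itga7, the laminin chain gene Lama2, the partner chain Itgb1 and the 10 myotube markers, with 95% confidence intervals; filled points have an adjusted p under 0.05. Lama2 is called at both glucose levels, Itga7 at 1 mM, and every point lies below 0.

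Of 17 tested genes for other integrin chains and the integrin-binding protein Itgb1bp2, 9 rose and 4 fell at 10 mM glucose on average, with a median of 0.38, beside 21.3% of all tested genes higher and 17.8% lower. Those with the smallest p were Itgb3 (-0.90 ± 0.09), Itgb1bp2, a muscle protein that binds integrin β1 and is no integrin itself (1.96 ± 0.22), Itga4, the α chain of the Vcam1 receptor (1.51 ± 0.17), and Itgb2 (-0.99 ± 0.13). Knockdown raised the integrin gene Itgb3 (0.79 ± 0.09) and lowered Itgb1bp2 (-1.36 ± 0.22), 2 of 17 beside 4.31% of all tested genes. That count was 1 without the second control replicate at 1 mM, either control replicate at 10 mM or the second knockdown replicate at 10 mM. Of 12 laminin and basement membrane genes tested, 2 rose and 4 fell with glucose (median -0.22), beside the same 21.3% and 17.8%, and 5 fell and 1 rose when arrays were centred on their medians. Nid2 rose by 1.62 ± 0.09, while Nid1, the other nidogen, had a change of -1.18 ± 0.09 and the laminin chains Lama1 and Lama5 of -1.76 ± 0.17 and -0.79 ± 0.09. Both probe sets of Nid1 fell. For the average knockdown effect, 2 of these 12 genes were called, beside 4.31% of all tested genes. With knockdown, Lama2 fell and Lama1 rose (1.01 ± 0.17), and the count of 2 went to 1 without either control replicate at 1 mM, the second control replicate at 10 mM or either knockdown replicate at 10 mM.

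Among the 3 Id genes, Id3 rose and Id2 fell with glucose when averaged over both cell types, and Id1 (0.43, adjusted p = 0.0587) was not called, although it passed with the stricter filter and with trend and robust options. At 1 mM glucose Id3 stood at 4.43 and 4.22 in control myotubes against 4.91 and 4.69 in knockdown myotubes, and at 10 mM it stood at 5.31 and 4.96 against 5.30 and 5.46. All 4 arrays at 10 mM lay above all 4 at 1 mM, and at 1 mM the knockdown arrays lay above the control arrays. The rise was 1.75-fold in control cells (0.81 ± 0.17, adjusted p = 0.0131, limma with Benjamini-Hochberg adjustment) and 1.49-fold in knockdown cells (0.58 ± 0.17, adjusted p = 0.0448). The call in control cells was lost without the second replicate at 1 mM (0.70, adjusted p = 0.0755) or the first at 10 mM (0.63, adjusted p = 0.0663). That in knockdown cells was lost on centring (0.48, adjusted p = 0.0814), without the filter (adjusted p = 0.0775), with trend and robust options (adjusted p = 0.0643) and on leaving out any array except the control arrays at 10 mM (adjusted p from 0.0586 to 0.193). On average over both cell types Id3 rose by 0.69 ± 0.12 (adjusted p = 0.00346). The knockdown changes were 0.48 ± 0.17 at 1 mM and 0.25 ± 0.17 at 10 mM (adjusted p = 0.238 and 0.592).

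At 1 mM glucose Id2 stood at 6.69 and 6.81 in control myotubes against 6.77 and 6.78 in knockdown myotubes, and at 10 mM it stood at 6.70 and 6.34 against 6.28 and 6.31. Of the arrays at 10 mM, 3 lay below all arrays at 1 mM, and the first control replicate did not. The change was -0.23 ± 0.15 in control cells (adjusted p = 0.310) and -0.48 ± 0.15 in knockdown cells (adjusted p = 0.0552). The latter was called on centring (-0.58, adjusted p = 0.0362), with the stricter filter (adjusted p = 0.0238), with trend and robust options (adjusted p = 0.0306) and on leaving out either control array at 10 mM (adjusted p = 0.0356). The average glucose effect was -0.35 ± 0.11 (adjusted p = 0.0339), and it was lost without the filter (adjusted p = 0.0609) and on leaving out any array except the first control replicate at 10 mM (adjusted p from 0.0585 to 0.0949).

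At 1 mM glucose Id1 stood at 4.76 and 5.03 in control myotubes against 4.74 and 5.08 in knockdown myotubes, and at 10 mM it stood at 5.40 and 5.74 against 5.31 and 4.89. In control cells the glucose levels did not overlap, and in knockdown cells they did. Its change was 0.68 ± 0.22 in control cells (adjusted p = 0.0586), called with the stricter filter (adjusted p = 0.0234) or with trend and robust options (adjusted p = 0.0414), and 0.19 ± 0.22 in knockdown cells (adjusted p = 0.574). Its average glucose effect was 0.43 ± 0.15 (adjusted p = 0.0587). That effect was called with the stricter filter (adjusted p = 0.0258), with trend and robust options (adjusted p = 0.0481) and without the second knockdown replicate at 10 mM (0.54, adjusted p = 0.0437). The responses of the cell types differed by -0.49 with an interval from -1.20 to 0.23.

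The promoters of Id3 and Id2 are shown because these closely related genes were called in opposite directions in the average glucose effect. They are the 250 bases before each start in RefSeq on GRCm38.p6, for Id3 at chr4:136143572-136143821 on the plus strand and for Id2 at chr12:25096093-25096342 on the minus strand, with matches to the motifs in capitals.
Id3: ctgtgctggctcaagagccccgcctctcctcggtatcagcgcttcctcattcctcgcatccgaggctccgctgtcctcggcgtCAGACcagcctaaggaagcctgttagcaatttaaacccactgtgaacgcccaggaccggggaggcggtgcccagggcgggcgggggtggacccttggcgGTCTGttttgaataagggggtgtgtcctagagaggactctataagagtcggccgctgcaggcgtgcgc
Id2: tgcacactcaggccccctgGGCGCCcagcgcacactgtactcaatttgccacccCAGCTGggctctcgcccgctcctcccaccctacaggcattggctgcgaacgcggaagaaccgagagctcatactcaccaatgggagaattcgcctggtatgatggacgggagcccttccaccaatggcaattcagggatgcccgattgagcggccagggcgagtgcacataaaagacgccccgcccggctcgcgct
The Id3 sequence held the Smad box as CAGAC 167 bases before the start and as its reverse complement GTCTG 68 bases before the start, and none of the other 3 motifs. The Id2 sequence held the E-box CAGCTG 196 bases and the element GGCGCC 231 bases before the start, and no Smad box or TATA box. Promoters were in the table for 5 of the 10 genes, and those of Cd34 (none of the 4 motifs) and Pax7 (1 Smad box) are not printed. Id1, Vcam1, Itga7, Pax3 and Msc were the other five.

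Id genes are classic targets of BMP signals, which run through type I and type II receptors to Smad1 and Smad5. Of 26 tested BMP pathway genes, 11 rose and 2 fell at 10 mM glucose on average, beside 21.3% of all tested genes higher and 17.8% lower, and the list's median change was 0.14. The genes that rose included ligands (Bmp4 at 1.12 ± 0.14), receptors (Bmpr1a at 0.55 ± 0.10) and the inhibitory Smad6 (0.72 ± 0.09), but also extracellular antagonists (Fst, follistatin, at 1.65 ± 0.11). The antagonist Grem1 fell by 1.68 ± 0.11 and the ubiquitin ligase gene Smurf1 by 0.78 ± 0.08, with Grem1, Fst, Hjv (1.58 ± 0.14) and Bmp1 (0.92 ± 0.08) having the smallest p. Smad1 and Smad5 changed by -0.01 ± 0.13 and -0.10 ± 0.09 and were not called. With knockdown 3 of 26 fell and 0 rose on average, beside 2.71% of all tested genes lower and 1.6% higher. Those that fell were Fst at -1.78 ± 0.11, the co-receptor gene Hjv at -1.70 ± 0.14 and the ligand gene Gdf5 at -0.91 ± 0.13. A second, dimmer probe set of Gdf5 (mean 1.27, beside 3.74) changed by -0.125. Bmp4, Bmpr1a, Smad6, Smurf1, Smad1 and Smad5 were picked for their roles after their values were seen.

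Id proteins act by binding E proteins. Of 11 tested E protein and related helix-loop-helix genes, 6 rose and 1 fell at 10 mM glucose on average (median 0.29), beside 21.3% of all tested genes higher and 17.8% lower, with 4 rising when arrays were centred on their medians and 4 called in all without the first knockdown replicate at 10 mM. Mxd4 (1.00 ± 0.10), Scx (1.22 ± 0.13), Bhlhe41 (1.08 ± 0.12) and Twist2 (-0.84 ± 0.15) had the smallest p, and none of these is an E protein. Of the 3 E protein genes, picked for their role after their values were seen, Tcf4 rose by 0.47 ± 0.11 (adjusted p = 0.0137), Tcf3 changed by 0.07 ± 0.09 (adjusted p = 0.601) and Tcf12 by 0.19 ± 0.09 (adjusted p = 0.128). With knockdown 0 of the 11 were called by limma on average, beside 4.31% of all tested genes. Id4 lay below the filter.

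Pax7, the paired-box factor of satellite cells, had values of 3.25 and 3.52 in control myotubes against 3.54 and 3.67 in knockdown myotubes at 1 mM, and of 3.40 and 3.40 against 4.65 and 3.60 at 10 mM. The first knockdown replicate at 10 mM stood apart from the other 7 arrays, which ran from 3.25 to 3.67. Neither glucose (0.02 ± 0.31 in control and 0.52 ± 0.31 in knockdown cells, adjusted p = 0.979 and 0.268) nor knockdown (0.22 ± 0.31 at 1 mM and 0.72 ± 0.31 at 10 mM, adjusted p = 0.774 and 0.365) gave a call. Without the second knockdown replicate at 10 mM, which leaves that high array alone, the glucose change in knockdown cells was 1.05 with an adjusted p of 0.0151.

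Pax3 read 2.35 to 2.74 over all 8 arrays. Its changes lay between -0.15 at 10 mM with knockdown and 0.20 with glucose in control cells, and none was called. Msc had values of 3.32 and 2.39 in control myotubes against 2.07 and 1.81 in knockdown myotubes at 1 mM, and of 2.27 and 2.66 against 2.22 and 2.81 at 10 mM. Its replicates differed by up to 0.93, the knockdown arrays at 1 mM were the lowest, and no contrast was called, including knockdown at 1 mM (-0.92 ± 0.33, adjusted p = 0.242). Intervals for Msc were wide, from -1.17 to 0.38 for glucose in control cells. A second probe set of Msc was about as dim (mean 2.38, beside 2.45) and read 1.98 to 2.85 over the arrays. At 1 mM it read 2.07 and 2.85 in control against 2.13 and 2.42 in knockdown myotubes, so these groups overlapped.

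**Figure D3:**
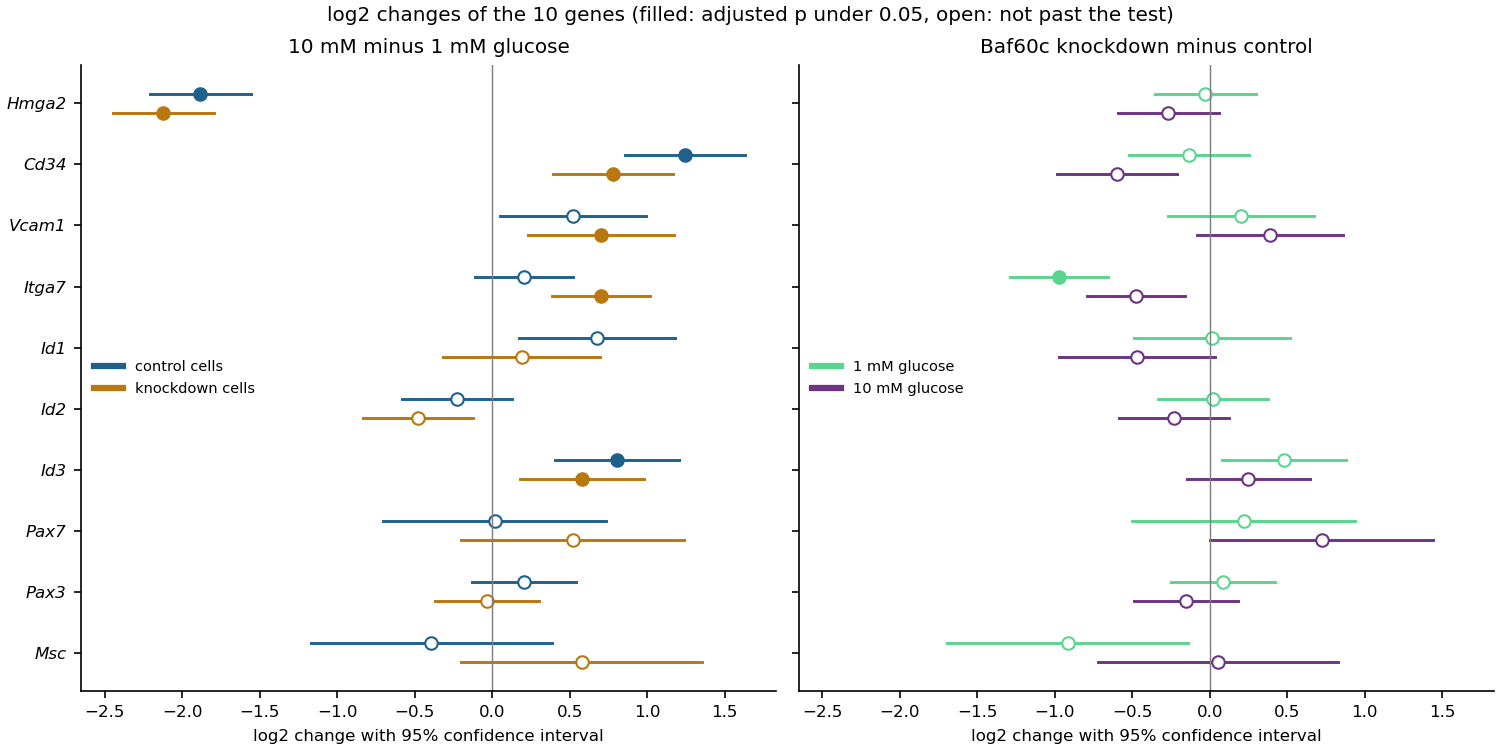
Log2 changes of the 10 genes with 95% confidence intervals, for glucose (left, control cells in blue and knockdown cells in orange) and for knockdown (right, 1 mM in green and 10 mM in purple); filled points have an adjusted p under 0.05. The fall of Hmga2 with glucose is the largest change, Itga7 is the gene called for knockdown at 1 mM, and Pax7 and Msc have the widest intervals.

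Other genes known from satellite cells moved in both directions with glucose. Of 27 such genes on the array, Calcr, Chrdl2, Fgfr4 and Barx2 were below the filter. Of the 23 tested, 11 rose and 5 fell on average (median 0.29), beside 21.3% of all tested genes higher and 17.8% lower. Tenm4, a teneurin, had the largest fall at -3.24 ± 0.13, and its second, dim probe set changed by -0.56. Cxcr4, the chemokine receptor of migrating muscle precursors, rose by 2.61 ± 0.11, the imprinted gene Peg3 by 1.52 ± 0.11 and the caveola protein gene Cav1 by 1.41 ± 0.10. Myf5, the myogenic factor of activated satellite cells and myoblasts, was picked for its role after its values were seen and fell by 0.88 ± 0.17 (adjusted p = 0.00608). Of the 23, knockdown raised Sdc3 (0.60 ± 0.11, limma adjusted p = 0.0251) and lowered Spry1 (-0.61 ± 0.11, adjusted p = 0.0258). These were 2 of 23 genes, beside 1.6% of all tested genes higher and 2.71% lower. That count of 2 fell to 1 without the first knockdown replicate at 1 mM and to 0 on leaving out any other array.

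**Figure D4:**
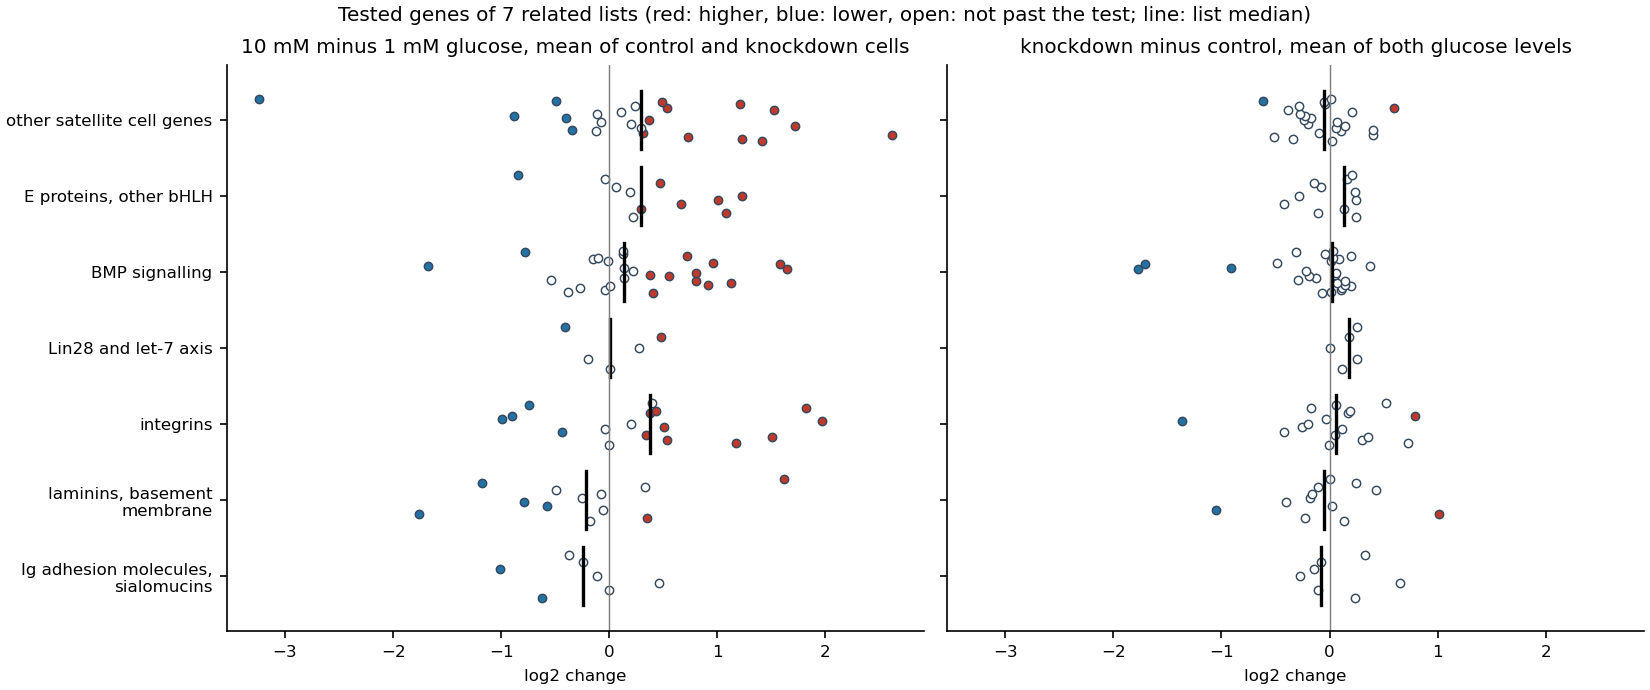
Average log2 change with glucose (left, over both cell types) and with knockdown (right, over both glucose levels) for each tested gene of the 7 related lists; red points were called higher, blue points lower and open points not called, and black lines are list medians. Calls stand on both sides of 0 for glucose in every list but the immunoglobulin and sialomucin genes, where 2 are lower, and few genes are called for knockdown.

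The genes whose values followed each of the 10 most closely over the 8 arrays are given as a description, since the arrays fall into 4 groups and share the glucose difference. The highest Pearson r with Hmga2 were those of Mdn1, a ribosome assembly factor (0.998), and Slc7a11, the cystine transporter (0.998). Cd34 was followed by Arrdc3 (0.992) and Castor2 (0.988), Vcam1 by Sh3bgrl (0.971) and Itga11 (0.968), and Id3 by Mis18a (0.980) and Anxa2 (0.973). For Itga7 they were the muscle genes Neb (0.993) and Chrng (0.991), which encode nebulin and a subunit of the acetylcholine receptor. Those of Id2 were Serpina6 (0.985) and Eva1a (0.978), and those of Id1 Atxn1l (0.959) and Pitpna (0.952). For the dim genes they were Mir874 (0.942) and Mrps5 (0.931) with Pax7, Rhbdf1 (0.968) and Cul1 (0.959) with Pax3, and Thap3 (0.970) and Ehbp1 (0.958) with Msc.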

How the data were processed

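RNA from 8 C2C12 cultures was measured on 8 arrays. The deposited values are log2 expression values that the authors made with RMA and affy (submitters' processing notes, no version given). They ran from 0.0556 to 13.6, with array medians of 2.56 to 2.68 over 41345 probe sets. RMA shrinks differences of dim probe sets and removes a shift common to all genes. The number of arrays limits the precision. The genome build behind the probe sets is not given in the sources used here.

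Names came from GEO's platform annotation, in which 23521 probe sets had 1 gene, 1814 several and 16010 none. Gene IDs of 23328 of the 23521 matched the GRCm38.p6 table, which changed 0 symbols. Of 22180 genes, 1082 had several probe sets and were read from the brightest. Genes with a mean under the 40th percentile (2.30) were left out, and all 10 genes passed. Group means were fitted over the 8 arrays with limma 3.58.1 in R 4.3.3 (4 residual and 3.36 prior degrees of freedom, tested on simulated data). There were 7 contrasts, with two-sided tests and Benjamini-Hochberg adjustment over 13308 genes. Errors are standard errors, intervals 95% confidence intervals, and the average effects are means of both simple effects. Each of the 4 groups enters both a glucose and a knockdown contrast, so these contrasts share arrays.

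The labels give replicate numbers only, and these were not used to pair the samples in the main fit. Whether same-numbered samples were prepared together is not given. The correlation of same-numbered deviations from the group means was -0.038 to 0.108. The text names all 10 genes, the knockdown target, up to 4 called genes of each list with the smallest p, and the 2 genes with the highest r for each of the 10, with exceptions stated. The members, lists and rules were chosen with earlier results of these data known. Alternatives were no filter, a 60th percentile filter, arrays centred on their medians, all probe sets of a gene averaged, limma's trend and robust options, a replicate block, and each array left out. Motifs were searched with Python 3.11.15.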

Additional observations from a re-analysis of the deposited data

How the results depend on the processing

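The fall of Hmga2 with glucose was called under every alternative tried, with changes of -1.79 to -1.98 in control and -2.03 to -2.22 in knockdown cells, and no called change of the 10 genes turned its direction. The count of the 10 genes called for glucose in control cells was 3, and 5 with limma's trend and robust options. The stricter filter added Id1 there, and the call of Id3 was lost on leaving out some control arrays. In knockdown cells it was 5, 3 without the filter, and 2 to 5 with an array left out: 2 without the first knockdown replicate at either glucose level and 3 without the second at 10 mM. For knockdown it was 1 at 1 mM (0 to 1 with an array left out), 0 at 10 mM (2 with trend and robust options), and 1 on average (2 with trend and robust options, 1 to 2 with an array left out). A replicate block was also tried, although the labels tie the samples by no more than a replicate number. With it the 7 counts were 4, 5, 1, 0, 0, 6 and 1. Their order is the glucose contrasts, the knockdown contrasts, the interaction and the 2 averages. Vcam1 was called for glucose in control cells with the block (0.52, limma adjusted p = 0.0352).

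The same alternatives were applied to the list counts after seeing the data. For the average glucose effect, the Lin28 and let-7 list gave 1 instead of 2 without the filter, with the stricter filter and on centring (1 to 2 with an array left out). The adhesion list gave 1 instead of 2 with the stricter filter (2 to 3), and the blood markers 0 with the stricter filter and 1 with trend and robust options instead of 2 (1 to 2). The helix-loop-helix list ran from 4 to 6 with an array left out, the smooth muscle markers from 1 to 3 and the endothelial markers from 0 to 1. For the average knockdown effect, trend and robust options gave 8 satellite cell genes, 6 BMP genes, 6 integrin list genes, 4 laminin genes, 4 smooth muscle markers, 2 fibroblast markers, 1 Lin28 axis gene and 1 adhesion gene. The stricter filter gave 6 satellite cell, 5 BMP and 5 integrin list genes. The all-gene count for this effect rose as well, from 573 of 13308 to 1120 with trend and robust options and to 846 of 8872 with the stricter filter. The block gave 4 integrin list genes and 0 fibroblast markers instead of 1, as did no filter. With an array left out the satellite cell genes ran from 0 to 1, integrins and laminins from 1 to 2, fibroblast markers from 0 to 0, smooth muscle markers from 1 to 2 and endothelial markers from 0 to 1.

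Centring each array moved the share of higher calls among all genes from 57.9% to 46.9% for glucose in knockdown cells. The all-gene count for glucose in control cells went from 3372 to 4095 with trend and robust options. Without the filter it was 2852 of 22180. For glucose in knockdown cells it went from 3342 to 4010 with those options, and was 2779 of 22180 without the filter. In control cells the count of the 10 genes also rose with those options, and in knockdown cells it also fell without the filter. The 10 genes did not always move with all genes. In control cells the block raised the count of the 10 genes, while the all-gene count fell to 3111. In knockdown cells trend and robust options left the count of the 10 genes unchanged. For knockdown at 1 mM the all-gene count went from 198 to 437 with the stricter filter and 598 with trend and robust options. At 10 mM it went from 149 to 69 without the filter and 73 with the block. It was 291 there with the stricter filter and 467 with trend and robust options. For the average knockdown it went from 573 to 1120 with trend and robust options, and was 846 of 8872 with the stricter filter. For the average glucose effect it was 5203, and 5714 with trend and robust options. There it was 4779 of 22180 without the filter, 4712 of 8872 with the stricter filter and 5313 on centring. With an array left out the all-gene counts were 2046 to 3251 for glucose in control and 1903 to 3185 in knockdown cells, 30 to 129 and 0 to 76 for knockdown at 1 mM and 10 mM, and 210 to 386 for the average knockdown. With 2 arrays a group, the median standard error of 0.17 log2 units limits what can be called, most of all for Pax7 and Msc, and 3 of the 10 genes did not pass the stricter filter.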
